A study of Arabidopsis thaliana with 24 samples.

Results

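Of the 33602 genes counted in this Arabidopsis thaliana series, 50 nuclear genes encode the photosynthetic apparatus, and they are described here as a group. They were named by gene identity and not by a threshold on measured values, although earlier results of these data were known when they were chosen. They comprise 14 LHCB genes and 6 LHCA genes for light-harvesting proteins, 12 PSA genes of photosystem I, 10 PSB genes of photosystem II, 3 PET genes of electron transport, 4 RBCS genes for the Rubisco small subunit, and RCA for Rubisco activase. LHCB proteins bind chlorophyll around photosystem II and LHCA proteins around photosystem I. PSA and PSB proteins are nuclear-encoded subunits of the photosystems themselves, PETC is the Rieske protein of the cytochrome b6f complex, PETE1 and PETE2 are plastocyanins, and Rubisco fixes carbon dioxide with the help of its activase. These genes are transcribed strongly in green tissue, and their proteins are imported into the chloroplast.

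The series compared plants carrying a mutation in LSM4 or LSM5 with wild-type plants of the same accession. Both genes encode Sm-like proteins that belong to a cytoplasmic ring promoting mRNA decapping and to a nuclear ring binding the U6 RNA of the spliceosome. The Columbia accession wild type (WT Col) and the lsm4 mutant (lsm4-1 in the protocol, Col accession) grew on Murashige and Skoog agarose and were taken at day 15, and the C24 accession wild type (WT C24) and the lsm5 mutant (also named sad1, C24 accession) grew on soil and were taken at day 30, when they had not bolted. Light was continuous and the temperature 22 °C for every plant, and polyA RNA of whole plants was sequenced, with 3 replicates in each of the 4 groups. Each mutant is 1 allele, and no wild-type library served both comparisons. The overall text of the series gives a single growth time, and the sample protocols were followed instead. Nothing says that the replicates were separate growths, so p-values measure only the spread between these samples.

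Libraries held between 9402839 counts (WT Col 1) and 52218346 counts (WT Col 2). LSM4 transcripts were not lower in lsm4: they were at 42.9, 52.0 and 76.3 CPM (counts scaled to the library total with TMM factors) in WT Col and at 412, 238 and 405 CPM in lsm4. LSM4 totals thus kept every lsm4 library apart from WT Col, on the higher side (log2 2.62, edgeR adjusted p 6.9e-04), for a reason that was not tested. LSM5 was at 19.9, 12.2 and 15.3 CPM in WT C24 and at 10.1, 11.1 and 16.7 CPM in lsm5. These overlapped (log2 -0.32, edgeR adjusted p 0.592), so LSM5 totals do not check the lsm5 label. In the C24 experiment the libraries crossed their labels in expression. WT C24 2 and lsm5 3 correlated about as well with the other group (mean r of log CPM 0.955 and 0.948) as with their own (0.961 and 0.955), so the counts of called genes and introns in lsm5 are given with and without them. The splicing bins, the other gene lists and the medians by gene structure in lsm5 were not recomputed without both. By the share of intron counts in all gene counts the same libraries kept to their labels: WT C24 libraries lay from 1.57% to 1.68% and lsm5 libraries from 1.85% to 2.07%. WT Col 1 and lsm4 2 lay farther from the other libraries of their groups than those lay from each other.

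The 50 genes filled a large part of every library. Together they held 23.4%, 23.0% and 23.3% of all gene counts in WT Col and 13.8%, 9.56% and 14.3% in lsm4. The groups did not overlap. In the C24 experiment the share was 17.5%, 23.6% and 17.8% in the wild type and 22.0%, 21.3% and 15.5% in lsm5, so the groups overlapped and the highest and the lowest library were WT C24 2 and lsm5 3. After TMM scaling the summed level had a mean of 245500 CPM in WT Col (SD 22790, n = 3) and 121000 CPM in lsm4 (SD 34570, n = 3), which is 0.493 of WT Col. The mean was 203100 CPM in WT C24 (SD 54340) and 195900 CPM in lsm5 (SD 57140), which is 0.964 of WT C24. In RNA of whole plants, fewer green cells and less RNA per cell cannot be told apart.

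**Figure D1:**
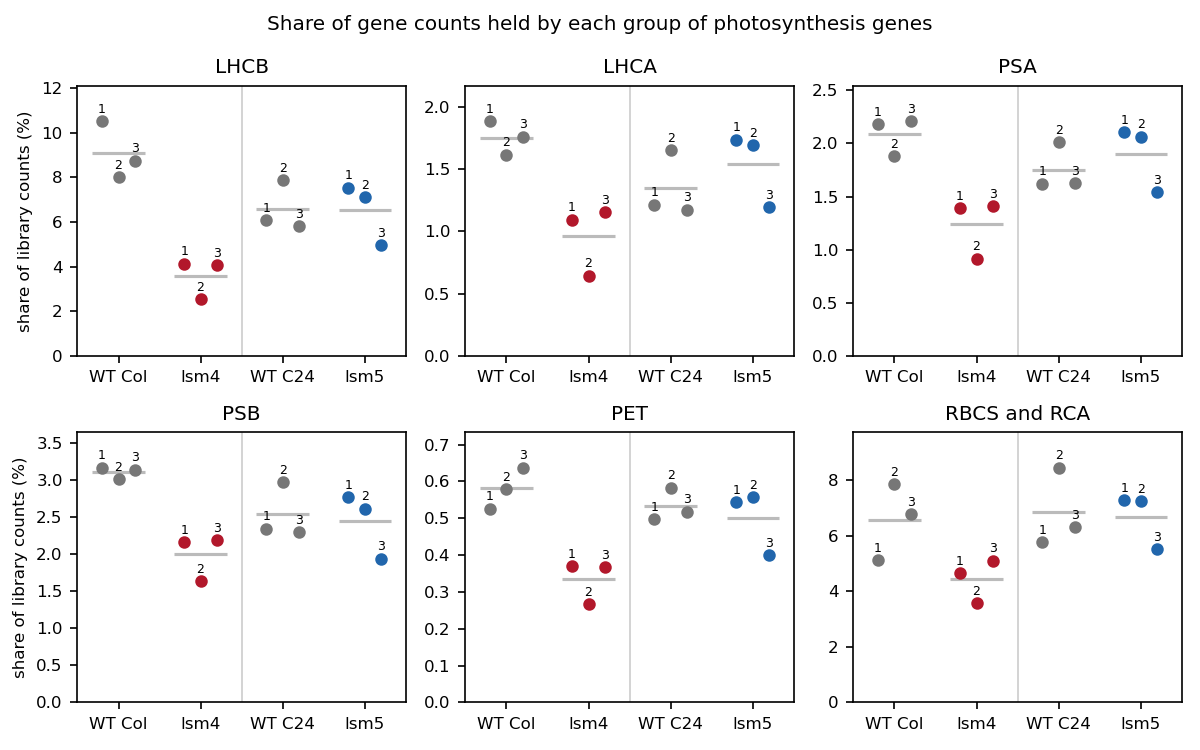
Share of each library's gene counts (percent, vertical axis from 0) held by the 6 groups of photosynthesis genes, with 1 numbered point per library and a grey line at the group mean. LHCB genes held 8.02% to 10.5% in WT Col and 2.53% to 4.14% in lsm4, whereas WT C24 and lsm5 overlapped in each panel, with WT C24 2 above WT C24 1 and 3 and lsm5 3 below lsm5 1 and 2.

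The first comparison asked how these genes differed between lsm4 and WT Col. All 50 passed the filter on low counts. With the edgeR quasi-likelihood test, 22 of them fell at an adjusted p under 0.05 (Benjamini-Hochberg over all 20793 genes tested) and none rose. That is 44% of the group, against 10.7% of all tested genes called lower and 21.4% called in either direction. All 50 had a log2 fold change below 0, as did 48.8% of all genes, and their median was -0.91 against 0.02 over all genes. In 44 of the 50 every lsm4 library lay below every WT Col library, which held for 19.1% of all genes. The other 6 (PSAF, PSAH1, PSBY, RCA, RBCS1A and RBCS1B) overlapped. In the authors' deposited table of genes lower in lsm4, 41 of the 50 are listed, and in their table of genes higher in lsm4 none is. Their list is not cut at 0.05, so its count is not directly comparable with the 22. How many of all genes the list holds is not given here, so the 41 has no background to be read against. The false discovery rate the authors gave was 0.0584 for RBCS1B, 0.0595 for PSAH2 and 0.074 for PSAN.

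The count depended on the tool and the libraries. It was 39 with DESeq2, which called 26.9% of all genes in either direction. With the replicate number as a block in edgeR it was 11, beside 17.2% of all genes, although the numbers are not known to pair the samples. Without WT Col 2, WT Col 3 or lsm4 1 it was 7 of the 50, beside 13.6%, 14.3% and 12.8% of all genes. In those fits the share of members called was near that of all genes called in either direction. The count was 10 without lsm4 3 (14.7% of all genes), 18 without lsm4 2 (20%) and 20 without WT Col 1 (21.5%). With WT Col 1 and lsm4 2 both left out, which was chosen after seeing the data, 39 fell and none rose, with 31.4% of all genes called in either direction. LHCB1.2, LHCB1.3, LHCB1.4, LHCB2.3, LHCA6, PSAD2 and PETE1 kept their call in each of the 14 alternatives run. The other 15 called members lost theirs in 3 to 6 of the 6 fits that left out 1 library, most often those without WT Col 2, WT Col 3 or lsm4 1.

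**Figure D2:**
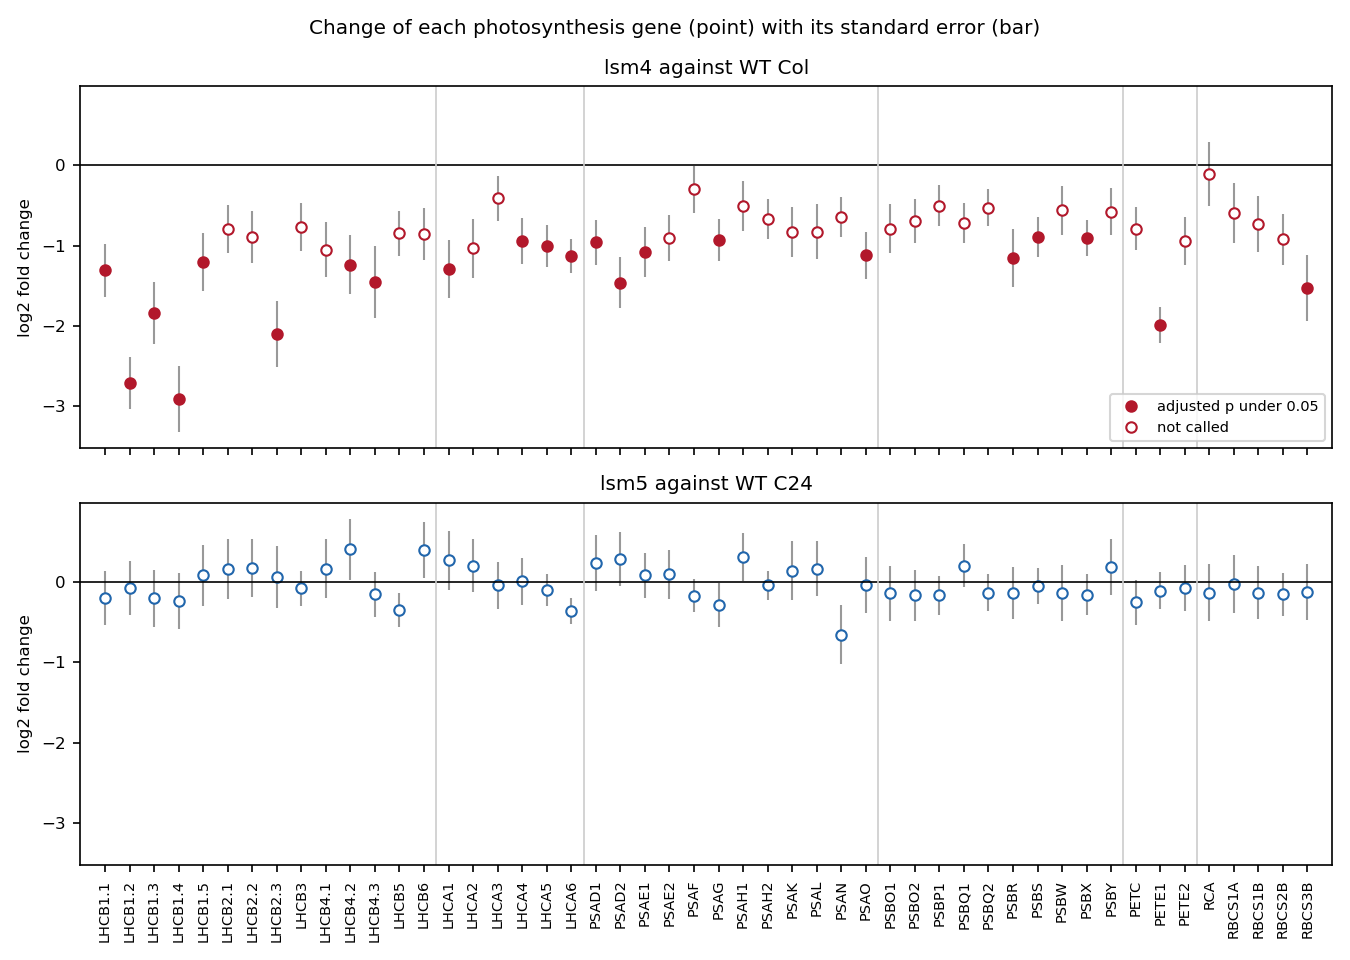
Log2 fold change of each of the 50 genes (horizontal axis, grouped by role) in lsm4 against WT Col and in lsm5 against WT C24, with the standard error as a bar; filled points passed an adjusted p of 0.05. In lsm4 every point lies below 0, from -0.11 (RCA) to -2.91 (LHCB1.4), and in lsm5 the points lie between -0.66 (PSAN) and 0.41 (LHCB4.2) with none filled.

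The light-harvesting genes of photosystem II held the largest falls. Of 14 LHCB genes 8 fell in lsm4 and 6 were not called, with a median log2 change of -1.22. LHCB1.4 (AT2G34430, chromosome 2, 14524756 to 14525763) was at 4502, 3006 and 2511 CPM in WT Col 1 to 3 and at 525, 228 and 578 CPM in lsm4 1 to 3. It fell 7.52-fold (log2 -2.91, SE 0.41, edgeR adjusted p 0.00166). LHCB1.2 (AT1G29910, chromosome 1, 10472280 to 10473299) was at 12090, 8766 and 9492 CPM in WT Col and at 1806, 1136 and 1693 CPM in lsm4. It fell 6.55-fold (log2 -2.71, SE 0.32, edgeR adjusted p 7.8e-04). In both genes the highest lsm4 library lay well below the lowest WT Col library.

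LHCB2.3 (AT3G27690, chromosome 3, 10255947 to 10257011) was at 845, 1084 and 1418 CPM in WT Col and at 308, 113 and 358 CPM in lsm4, a 4.29-fold fall (log2 -2.10, SE 0.42, edgeR adjusted p 0.0079). LHCB1.3 (AT1G29930, chromosome 1, 10478005 to 10479048), the most abundant of the 50 per kilobase in WT Col, was at 31800, 28790 and 34210 CPM and at 10720, 5359 and 10390 CPM in lsm4. It fell 3.58-fold (log2 -1.84, SE 0.39, edgeR adjusted p 0.0104). The other called LHCB genes were LHCB1.1, LHCB1.5, LHCB4.2 and LHCB4.3, with log2 changes from -1.203 (LHCB1.5) to -1.45 (LHCB4.3). LHCB4 proteins are the minor antenna CP29, and LHCB4.3 was the least expressed LHCB gene, at 84.0, 113 and 191 CPM in WT Col against 64.4, 19.0 and 58.7 CPM in lsm4.

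The 6 LHCB genes not called were LHCB2.1, LHCB2.2, LHCB3, LHCB4.1, LHCB5 and LHCB6, with log2 changes from -0.77 to -1.05 and adjusted p between 0.0571 and 0.102. LHCB5 and LHCB6 encode the minor antennae CP26 and CP24, and LHCB3 another subunit of antenna trimers. In each of these 6 genes the lsm4 libraries lay below all WT Col libraries, so the groups did not overlap although the test was not passed. Among the LHCA genes, 4 of 6 fell in lsm4. LHCA6, which encodes a minor linker of photosystem I to the NDH complex, was at 129, 123 and 91.1 CPM in WT Col and at 56.3, 42.1 and 57.8 CPM in lsm4 (log2 -1.13, SE 0.21, edgeR adjusted p 0.00625). LHCA1, LHCA4 and LHCA5 fell by 1.295, 0.94 and 1.01 on the log2 scale. LHCA2, the most abundant LHCA gene per kilobase, was at 5232, 5999 and 7457 CPM in WT Col and at 3780, 1610 and 3733 CPM in lsm4. It was not called (log2 -1.04, edgeR adjusted p 0.079), nor was LHCA3 (log2 -0.41).

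Of the 12 photosystem I subunit genes 5 fell in lsm4, namely PSAD1, PSAD2, PSAE1, PSAG and PSAO. PSAD and PSAE form the side of the complex where ferredoxin docks. PSAD2 (AT1G03130, chromosome 1, 753307 to 754198) was at 761, 778 and 939 CPM in WT Col and at 360, 161 and 379 CPM in lsm4, a 2.75-fold fall (log2 -1.46, SE 0.32, edgeR adjusted p 0.0126). PSAL, the most abundant PSA gene per kilobase, was at 4282, 5280 and 6262 CPM in WT Col and at 3707, 1753 and 3457 CPM in lsm4. Its groups did not overlap, but it was not called (log2 -0.83, edgeR adjusted p 0.122). PSAF was at 1235, 660 and 616 CPM in WT Col and at 677, 598 and 762 CPM in lsm4, with overlap.

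Of the 10 photosystem II subunit genes, 3 fell in lsm4. They were PSBR, PSBS and PSBX, with log2 changes of -1.15, -0.89 and -0.91. PSBS is the protein that senses lumen acidity in the quenching of excess light. PSBO1, the main form of the extrinsic protein that stabilises the oxygen-evolving cluster, was at 9386, 9880 and 10950 CPM in WT Col and at 6589, 4177 and 6723 CPM in lsm4. It was not called (log2 -0.79, edgeR adjusted p 0.102) although the groups did not overlap. PSBO2, PSBP1, PSBQ1, PSBQ2, PSBW and PSBY were not called either, with log2 changes from -0.50 to -0.71.

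The plastocyanin gene PETE1 (AT1G76100, chromosome 1, 28553987 to 28554768) had the lowest adjusted p of the 50. It was at 260, 274 and 357 CPM in WT Col and at 77.5, 58.4 and 88.1 CPM in lsm4, a 3.98-fold fall (log2 -1.99, SE 0.23, edgeR adjusted p 6.7e-04). PETE2, the more abundant plastocyanin, was at 3477, 4582 and 5145 CPM in WT Col and at 2688, 1592 and 2587 CPM in lsm4. PETE2 and PETC were not called (log2 -0.94 and -0.79, adjusted p 0.0554 and 0.0653).

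Among the Rubisco genes only RBCS3B passed the test in lsm4. RBCS3B (AT5G38410, chromosome 5, 15377173 to 15378416) was at 11630, 22670 and 19950 CPM in WT Col and at 7570, 3747 and 7458 CPM in lsm4, a 2.89-fold fall (log2 -1.53, SE 0.41, edgeR adjusted p 0.0285). RBCS1A, the most abundant Rubisco gene per kilobase, was at 17370, 28640 and 25760 CPM in WT Col and at 18740, 11220 and 17730 CPM in lsm4. WT Col 1 lay among the lsm4 libraries. RCA was the member with the smallest change, at 7383, 16690 and 12050 CPM in WT Col and at 12730, 7382 and 13320 CPM in lsm4 (log2 -0.11, SE 0.40, edgeR adjusted p 0.876). Its groups overlapped fully.

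**Figure D3:**
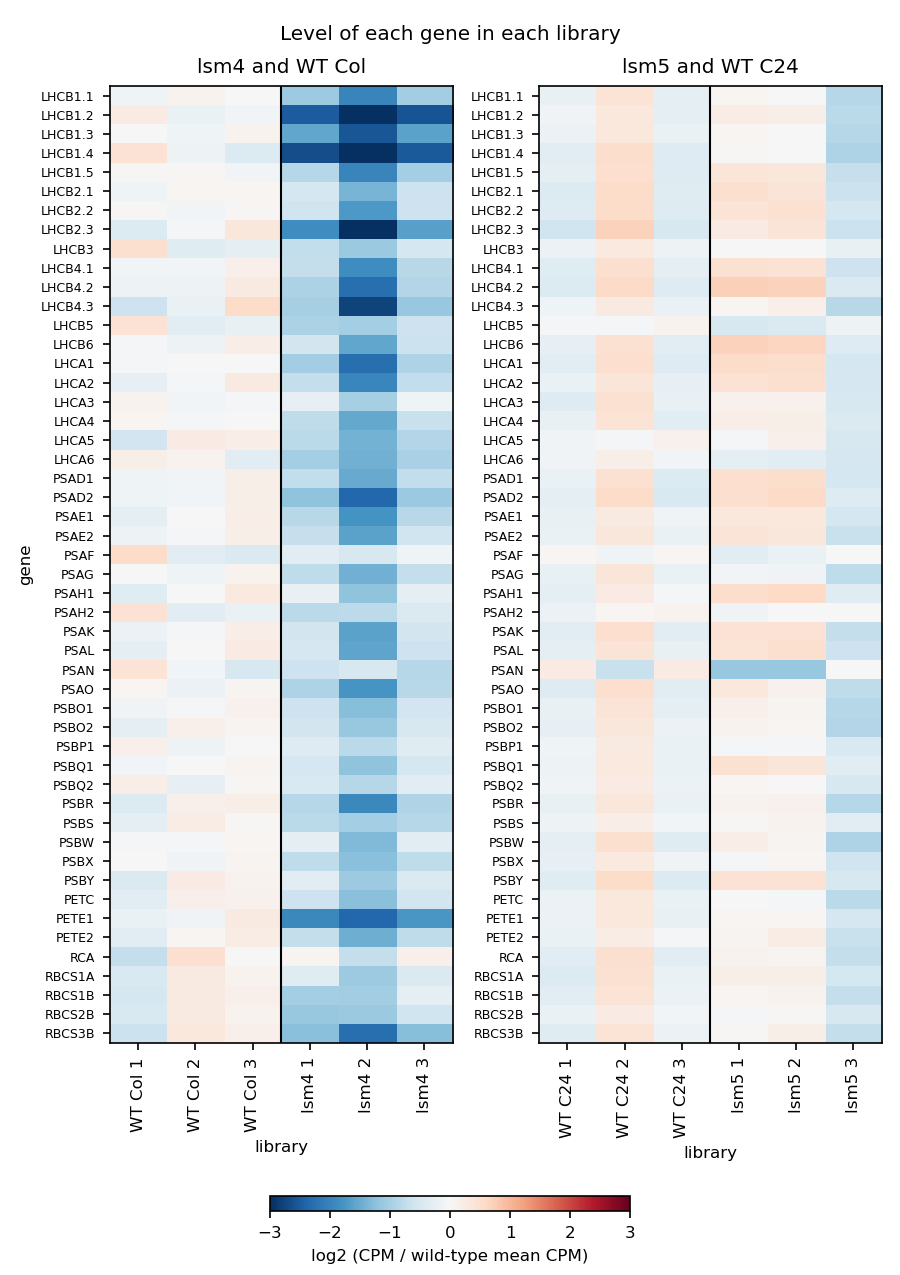
Level of each of the 50 genes (rows) in each of the 12 libraries (columns), as the log2 ratio of its CPM to the mean CPM of its own wild type; blue is lower and red is higher. Each lsm4 column is blue over nearly all rows and lsm4 2 is the darkest, whereas WT C24 2 is redder than WT C24 1 and 3, and lsm5 3 is bluer than lsm5 1 and 2.

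The second comparison asked the same of lsm5 against WT C24. All 50 genes were tested, and with edgeR none was called at an adjusted p under 0.05, in a fit that called 2.45% of all genes (1.51% higher and 0.938% lower). None of the 50 had an unadjusted p under 0.05 either, against 3535 of all 19819 genes, and DESeq2 called none. Log2 changes were below 0 for 31 of 50 genes, against 49.4% of all genes, with a median of -0.07. In LHCB5 and LHCA6 the lsm5 libraries lay below all WT C24 libraries without overlap (10.4% of all genes did so). LHCA6 was at 78.9, 95.3 and 79.7 CPM in WT C24 and at 70.8, 67.7 and 59.5 CPM in lsm5 (log2 -0.36, SE 0.17, edgeR adjusted p 0.303). LHCB1.2 was at 7293, 9668 and 6413 CPM in WT C24 and at 9025, 8752 and 4462 CPM in lsm5 (log2 -0.07, SE 0.34). RBCS1A was at 18730, 34560 and 21830 CPM in WT C24 and at 28470, 28250 and 17250 CPM in lsm5 (log2 -0.02, SE 0.36). Both genes were highest or near highest in WT C24 2 and lowest in lsm5 3.

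This outcome rested on those libraries. Leaving out lsm5 3 alone left 1 member called (PSAN, lower), beside 10.2% of all genes called in either direction. With WT C24 2 and lsm5 3 both left out, a contrast chosen after seeing the data that keeps 2 libraries a side, 33 of the 50 were called higher and 3 lower, and 39.9% of all genes were called. The median log2 change of the 50 was then 0.38, against -0.01 over all genes. PSAN, a lumenal photosystem I subunit near the plastocyanin docking site, was among the 3 called lower there. It was at 637, 336 and 632 CPM in WT C24 and at 243, 244 and 529 CPM in lsm5, with overlap (log2 -0.66, SE 0.37, edgeR adjusted p 0.393), and WT C24 2 and lsm5 3 lay between the other libraries of the groups.

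The difference between the mutants was tested gene by gene as (lsm4 minus WT Col) minus (lsm5 minus WT C24) over all 12 libraries. With edgeR, 5 of the 50 were called, all of them lower in lsm4, where 5.08% of 21588 genes were called lower and 10.5% in either direction. They were LHCB1.2 (log2 -2.62, SE 0.46, adjusted p 0.00372), LHCB1.4 (-2.65, SE 0.57, adjusted p 0.0115), PETE1 (-1.86, adjusted p 0.00372), LHCB2.3 (-2.13, SE 0.63, adjusted p 0.0479) and PSAD2 (-1.72, adjusted p 0.0484). The first 3 kept their call whichever library was left out. Without lsm5 3 the count was 12, and LHCB2.3 and PSAD2 lost their call in 8 and 10 of 12 such fits. The mutated gene, accession, age and medium all differ between the experiments and cannot be told apart.

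The share of each copy in the counts of its subunit was compared over 10 families with 27 copies. In lsm4 the shares of 15 copies lay apart from WT Col without overlap (7 higher and 8 lower), and those of the other 12 overlapped. The shares of a family add up to the whole. In PSAD, PSAE and PETE the 2 copies therefore mirror each other and count on both sides. No such count was made over other gene families. LHCB1 has 5 gene copies, 3 of them neighbours on chromosome 1 (LHCB1.1, LHCB1.2 and LHCB1.3) and the other 2 neighbours on chromosome 2. LHCB1.2 gave 16.9%, 13.5% and 13.8% of the summed LHCB1 counts in WT Col and 7.13%, 8.94% and 7.02% in lsm4. LHCB1.5 went the other way, from 20.7%, 22.7% and 19.6% to 31.5%, 28.8% and 29.2%. LHCB1.1 went from 13.3% ± 1.72 (SD, n = 3 throughout) to 17.9% ± 0.744, LHCB1.3 from 46.1% ± 3.08 to 42.5% ± 0.465, and LHCB1.4 from 4.85% ± 1.34 to 2.09% ± 0.302. No copy's shares overlapped between WT Col and lsm4. With 3 libraries against 3, the two-sided exact permutation test cannot go below p = 0.1, which each of these 5 shares reached, so none passes 0.05. The coding sequences of LHCB1.1, LHCB1.2 and LHCB1.3 share 95.6% to 96.4% of their bases, so the authors' counting could have moved reads among these 3, and their separate values are uncertain. LHCB1.4 and LHCB1.5 share 91.4% with each other and 86.8% to 90.4% with the others. Their longest identical run is 122 bases, against 74 to 119 bases among LHCB1.1, LHCB1.2 and LHCB1.3. The separate values of LHCB1.4 and LHCB1.5 are therefore uncertain in the same way.

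In LHCB2, LHCB2.3 gave 11.3%, 13.5% and 16.5% of the counts in WT Col and 6.16%, 4.47% and 7.33% in lsm4. LHCB2.1 gave 52.4%, 55.1% and 51.9% and then 59.1%, 63.8% and 57.1%. Both were without overlap, and LHCB2.2 (33.1% ± 2.77 and 34.0% ± 2.03) overlapped. The coding sequences of LHCB2.1 and LHCB2.2 share an identical run of 137 bases, so their separate values are uncertain too. Among the RBCS genes, RBCS3B went from 28.6%, 31.8% and 31.3% in WT Col to 22.1%, 16.4% and 19.8% in lsm4, and RBCS1A from 42.7%, 40.2% and 40.4% to 54.8%, 49.1% and 47.1%. RBCS1B, RBCS2B and RBCS3B lie in a row on chromosome 5 and share 94.1% to 97.3% of their coding bases, so the same uncertainty holds for them. PSAD2 went from 21.2%, 21.1% and 21.2% of the PSAD counts to 16.4%, 13.0% and 17.2%, and PETE1 from 6.36% ± 0.666 of the plastocyanin counts to 3.21% ± 0.374. Each of these shifts without overlap also had the smallest exact permutation p of 0.1. The PSAH, PSBO, PSBQ and LHCB4 shares overlapped between WT Col and lsm4, and PSAE2 went from 26.3% ± 1.17 to 28.7% ± 0.722 of the PSAE counts.

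In lsm5 the shares of 8 copies lay apart from WT C24 without overlap (3 higher and 5 lower), and those of 19 overlapped. The difference in these counts from lsm4 was not tested. PSBQ1 and PSBQ2, the only PSBQ copies compared, mirror each other and count on both sides. LHCB1.5 went from 14.5%, 17.04% and 14.4% of LHCB1 counts in WT C24 to 18.3%, 18.4% and 17.1% in lsm5. PSBQ1 went from 56.1%, 57.4% and 56.1% of PSBQ counts to 63.4%, 63.1% and 59.0%, and LHCB4.2 from 10.8% ± 0.887 to 12.8% ± 0.342 of LHCB4 counts. The lower shares were those of LHCB1.1 (16.3% to 15.7%), LHCB4.1 (83.3% to 82.6%), LHCB4.3 (5.92% to 4.63%), RBCS1B (15.8% to 15.2%) and PSBQ2 (43.5% to 38.2%). These 8 shares did not overlap between the groups, although the levels of the same genes in CPM did, and their exact permutation p was 0.1, the smallest possible. LHCB1.2 (15.6% and 16.1%), LHCB2.3 (9.15% and 8.87%), PETE1 (6.91% and 6.96%) and RBCS3B (27.1% and 26.2%) overlapped.

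**Figure D4:**
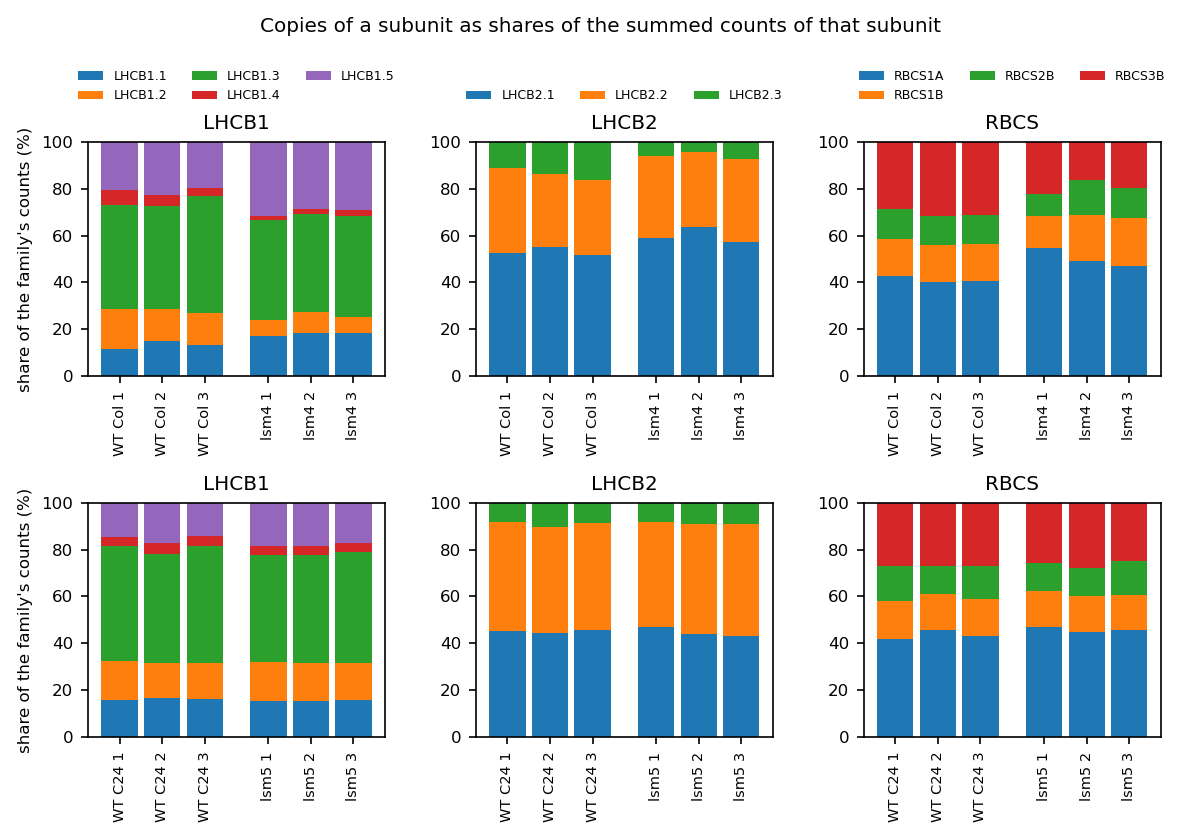
Stacked bars from 0 to 100% show each gene copy as a share of the summed counts of LHCB1, LHCB2 or RBCS in each library; the upper row holds WT Col and lsm4, the lower row WT C24 and lsm5. LHCB1.5 rises from 19.6% to 22.7% in WT Col to 28.8% to 31.5% in lsm4, while LHCB1.2, LHCB2.3 and RBCS3B take smaller shares in each lsm4 library.

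The promoters of copies that moved differently in lsm4 are shown for LHCB2.1 (log2 -0.80, not called) and LHCB2.3 (log2 -2.10), as the 250 bases before the transcript start in RefSeq's TAIR10.1 annotation. Capitals mark the G-box CACGTG and the I-box GATAAG (or its reverse complement CTTATC), sequence elements known from light-regulated promoters.
LHCB2.1 (chr2:1824481-1824730, minus strand): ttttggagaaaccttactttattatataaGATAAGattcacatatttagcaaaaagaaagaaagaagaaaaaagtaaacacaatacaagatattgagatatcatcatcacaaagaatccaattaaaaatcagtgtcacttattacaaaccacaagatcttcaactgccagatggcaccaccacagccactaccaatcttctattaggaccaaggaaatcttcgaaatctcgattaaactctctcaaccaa
LHCB2.3 (chr3:10255656-10255905, plus strand): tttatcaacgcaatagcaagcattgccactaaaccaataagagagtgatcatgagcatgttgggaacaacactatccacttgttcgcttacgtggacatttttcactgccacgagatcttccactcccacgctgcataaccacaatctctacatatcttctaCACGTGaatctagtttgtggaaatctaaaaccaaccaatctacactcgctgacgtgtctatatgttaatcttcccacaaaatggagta

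The LHCB2.1 window held 1 I-box and no G-box, and the LHCB2.3 window 1 G-box and no I-box. The window of LHCB2.2 (log2 -0.89, not called) held neither. A link between these boxes and the changes was not tested. On both strands of such windows, the G-box was found in 9 of the 50 genes (18.0%) and in 7.34% of 20607 promoters of genes tested in the lsm4 comparison. The I-box was found in 13 (26.0%) against 12.4%, and the letters CCAATC or GATTGG in 14 (28.0%) against 10.5%. The evening element AAAATATCT was found in 1 (LHCA5) against 2.47% and the letters CCGAC in 3 against 12.8%. None of the 5 LHCB1 windows held a G-box or an I-box. These are matches of letters and not measured binding sites.

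The members were also read by gene structure. Of the 50, 12 have no intron in the reference annotation (LHCB1.1 to LHCB1.5, PSAD1, PSAD2, PSAG, PSBX, PSBY, PETE1 and PETE2), and 10 of these 12 fell, with a median log2 change of -1.25. Of the 38 with an intron, 12 fell, with a median of -0.84. Over all nuclear genes tested, 518 of 3083 without introns and 1700 of 17524 with introns fell, with median log2 changes of -0.25 and 0.05. Called in either direction were 26.1% of those without introns and 20.7% of those with introns. In lsm5 the medians were -0.09 for the 12 and -0.05 for the 38. The difference between these subsets was not tested.

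Intron reads were examined as the count of an intron relative to that of its gene. They are numbered as in the deposited files, by rising coordinate, which for a minus-strand gene starts at its 3-prime end. Of the 80 introns listed in 37 of the 50 genes, 74 in 36 genes could be tested in lsm4. With edgeR, 12 in 11 genes rose relative to their gene, 16.2% against 17.8% of all 11439 introns tested, and 1 fell (0.297% of all). The split depended on the scaling. With the offset centred on the median intron, 3 were higher and 3 lower, beside 4.98% of all introns called in either direction. Without the host offset the value includes the change of the gene. In that fit 1 was higher and 30 lower, beside 21.3% of all introns called, and 8 of the 12 turned negative. Relative log2 changes were above 0 for 62 of 74 (81.8% of all introns), with a median of 0.42 against 0.65 over all introns. The share of member introns that rose was near that of all introns.

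The introns with the largest rises in lsm4 that kept their call without any 1 library are printed from the reference genome (TAIR10.1, whose coordinates match those of the files), 5′ to 3′ along the gene. Capitals mark the first 6 bases of the intron as listed, and the last 3 bases at the 3-prime splice site. U1 and then U6 RNA pair with the 5-prime splice site. An alternative 5-prime splice site bin of 4 bases lies directly before PSBP1 intron 2. The capitals of PSBP1 intron 2 therefore mark only the downstream site, and which site was used more was not tested.
RCA intron 4 (chr2:16572027-16572117, minus strand): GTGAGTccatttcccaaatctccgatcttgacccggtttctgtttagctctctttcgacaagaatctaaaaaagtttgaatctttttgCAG
LHCA5 intron 1 (chr1:17179538-17179609, plus strand): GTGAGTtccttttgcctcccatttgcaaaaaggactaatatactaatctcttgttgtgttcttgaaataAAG
PSBP1 intron 2 (chr1:2048191-2048296, plus strand): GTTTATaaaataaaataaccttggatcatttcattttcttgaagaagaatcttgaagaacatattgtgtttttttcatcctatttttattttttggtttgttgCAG
PSAO intron 2 (chr1:2641565-2641660, minus strand): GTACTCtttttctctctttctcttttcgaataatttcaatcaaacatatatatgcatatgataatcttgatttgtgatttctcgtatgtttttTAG

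All 4 lie between coding exons, and none overlaps an annotated exon. RCA intron 4 had a density of 0.174%, 0.207% and 0.191% of that of its gene in WT Col and 1.32%, 1.38% and 1.35% in lsm4, where density is the count per base of the intron over the count per base of the gene. Its counts were 6, 75 and 25 in WT Col and 270, 176 and 290 in lsm4. The relative rise was 6.89-fold (log2 2.79, SE 0.28, edgeR adjusted p 1.5e-04). The replicates lay close together while RCA itself was not called. The other RCA introns tested (3, 5, 6 and 7) were not called, with relative log2 changes from -1.08 to 0.69 in lsm4.

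LHCA5 intron 1 had 0, 18 and 7 counts in WT Col and 30, 23 and 38 in lsm4. Its density was 0%, 2.33% and 1.87% in WT Col and 10.8%, 11.8% and 14.3% in lsm4, a relative rise of 6.50-fold (log2 2.70, SE 0.50, edgeR adjusted p 0.00339). It is the highest intron density gained among the called introns, in a gene that itself fell. PSBP1 intron 2 went from 0.640%, 0.757% and 0.581% to 2.44%, 1.76% and 2.46% (log2 1.74, SE 0.28, edgeR adjusted p 0.00176). PSBP1 encodes another extrinsic protein of the oxygen-evolving complex. PSAO intron 2 went from 0.995%, 0.665% and 0.847% to 1.74%, 3.52% and 2.19% (log2 1.59, SE 0.32, edgeR adjusted p 0.00554). None of these introns overlapped between the groups.

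PETC intron 4 had a relative log2 change of 1.99 (SE 0.61, edgeR adjusted p 0.0355), but on 4, 17 and 5 counts in WT Col and 16, 39 and 15 in lsm4, and it rested on lsm4 2 at 2.27% against 0.638% and 0.583% in lsm4 1 and 3. Without lsm4 2, WT Col 2 or WT Col 3 it lost its call, with adjusted p up to 0.176. PSBO1 intron 1 was the intron that fell. Its density was 0.268%, 2.13% and 1.199% in WT Col and 0.419%, 0.372% and 0.403% in lsm4 (log2 -1.60, SE 0.47, edgeR adjusted p 0.029). The groups overlapped and the wild-type libraries were far apart, and without WT Col 2 or lsm4 1 the call was lost. The other rises were those of PSAE2 intron 1, PSBS intron 2, PSAO intron 1, LHCA1 intron 6, LHCB3 intron 2, PSAK intron 2 and LHCB6 intron 1, with relative log2 changes between 0.72 and 1.24. LHCB3 intron 2 had the highest density of them, at 7.61%, 9.52% and 7.70% in WT Col against 13.5%, 18.5% and 18.3% in lsm4. Each of these 7 lost its call in 1 to 6 of the 6 fits that left out 1 library, LHCB6 intron 1 in all 6 and PSAK intron 2 in 5. LHCB6 intron 1 overlaps an exon of AT1G05207, whose reads cannot be told apart from it in libraries that do not mark strand.

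**Figure D5:**
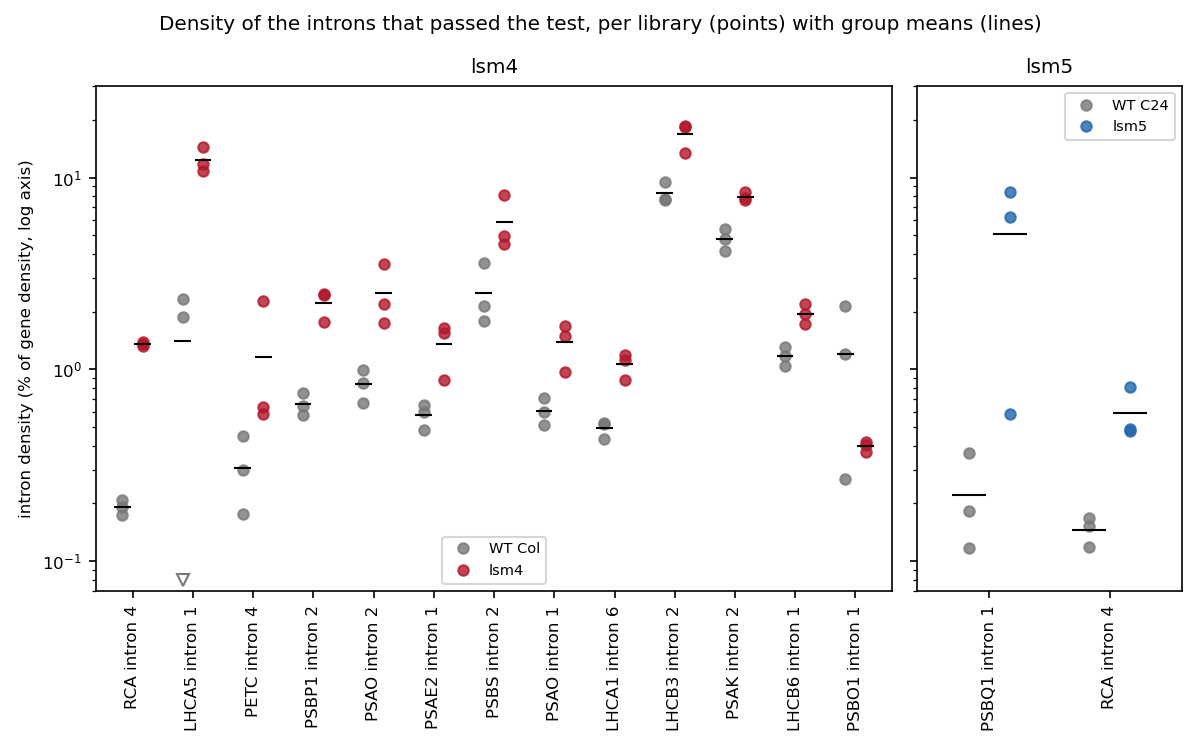
Intron density as a percentage of the density of the gene (logarithmic axis) in each library for the 13 introns called in lsm4 and the 2 called in lsm5, with black lines at group means; an open triangle at the foot marks 0 counts (LHCA5 intron 1 in WT Col 1). RCA intron 4 moves from 0.174% to 0.207% in WT Col to 1.32% to 1.38% in lsm4, and PSBO1 intron 1 shows the wide spread of WT Col beside its lower lsm4 values.

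In lsm5, 74 introns in 37 genes were tested. Of these, 2 rose relative to their gene and none fell, against 0.517% of all 7151 introns called higher, 0.014% lower and 0.531% in either direction. Relative changes were above 0 for 50 of 74, against 68.6% of all introns. RCA intron 4 was again one of them. Its density was 0.152%, 0.118% and 0.169% in WT C24 and 0.475%, 0.487% and 0.811% in lsm5, a 4.07-fold relative rise without overlap (log2 2.03, SE 0.35, edgeR adjusted p 0.0403). The comparisons share no library. The other was PSBQ1 intron 1 (chromosome 4, 11334723 to 11335091, between coding exons), in the gene for another extrinsic protein of the oxygen-evolving complex. It was at 0.183%, 0.118% and 0.367% in WT C24 and at 8.39%, 0.583% and 6.20% in lsm5, with 1690, 118 and 877 counts in lsm5. The lsm5 libraries differed widely, but all lay above WT C24 (log2 4.53, SE 0.80, edgeR adjusted p 0.0403). Both calls were lost without WT C24 1, WT C24 3 or lsm5 1, and RCA intron 4 also without lsm5 2, with adjusted p up to 0.192 for RCA and 0.211 for PSBQ1. Leaving out WT C24 2 gave 5 called member introns and leaving out lsm5 3 gave 6, all higher, beside 1.07% and 2.25% of all introns called. With WT C24 2 and lsm5 3 both left out, 17 rose and 11 fell, and 16.9% of all introns were called. PSBQ1 intron 1 was not called in lsm4, where it was at 0.423%, 8.42% and 0.407% in WT Col and 0.829%, 6.24% and 6.66% in lsm4, so a wild-type library also reached the high values.

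Of the 11 other introns that rose in lsm4, none passed in lsm5. In 6 of them (PSBP1 intron 2, PSAO introns 1 and 2, PSAK intron 2, PETC intron 4 and LHCB3 intron 2) all lsm5 libraries lay above all WT C24 libraries, which held for 16.5% of all introns. PSBP1 intron 2 was at 0.168%, 0.315% and 0.277% in WT C24 and at 0.720%, 0.606% and 0.725% in lsm5 (log2 1.39, edgeR adjusted p 0.0914). LHCB3 intron 2 was at 7.14%, 8.25% and 6.49% in WT C24 and at 13.3%, 13.3% and 15.3% in lsm5 (log2 0.94, edgeR adjusted p 0.0876). The other 5 overlapped, namely LHCB6 intron 1, PSBS intron 2 (log2 -0.02), PSAE2 intron 1, LHCA1 intron 6 and LHCA5 intron 1. LHCA5 intron 1 had 1, 18 and 5 counts in WT C24 and 14, 41 and 12 in lsm5.

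The annotated alternative splicing bins gave no call. Of the 50 genes 11 hold 17 such bins, all of them tested. None passed in lsm4 (0.366% of all bins were called), where 2 of the 17 had an unadjusted p under 0.05 against 9.27% of all bins, and 8 had a log2 change above 0 against 55.9%. None passed in lsm5, where no bin of any gene was called. There 1 of the 17 had an unadjusted p under 0.05 against 4.67%, 12 were above 0 against 51.1%, and in none did all lsm5 libraries lie above all WT C24 libraries, against 5.12%. DESeq2 was not run on bins. The lowest p belonged to a 4-base alternative 5-prime splice site bin of PSBP1 (chromosome 1, 2048187 to 2048190), which ends at the base before the intron 2 printed above. Its density was 12.2%, 17.02% and 17.4% of that of the gene in WT Col against 61.1%, 26.0% and 59.7% in lsm4, without overlap (log2 1.64, edgeR adjusted p 0.1). The density of so short a bin is not a share of transcripts. In WT Col a 4-base bin of PSAN had a mean of 1907% and a 7-base bin of RBCS1A a mean of 1449%. In the C24 experiment the PSBP1 bin was at 7.95% ± 3.36 in the wild type and 20.4% ± 12.0 in the mutant, with overlap (log2 1.33, edgeR adjusted p 0.978). A retained-intron bin of LHCB4.2 had a density of 6.25%, 5.001% and 5.15% in WT Col against 9.89%, 7.92% and 8.84% in lsm4, without overlap (log2 0.71, edgeR adjusted p 0.268). The 2 RCA bins had log2 changes of -0.07 and -0.16 in lsm4 and were not called.

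Other genes of photosynthesis were read from lists chosen by function. In lsm4, 6 of 17 Calvin cycle genes fell and 1 rose, 7 of 19 other thylakoid genes fell, 8 of 20 regulators and assembly factors fell and 7 of 12 chlorophyll synthesis genes fell, beside the 10.7% of all genes called lower. The Calvin cycle gene that rose was TKL2, a transketolase, from 39.6 ± 5.85 to 76.2 ± 7.47 CPM, while RPI3, PGK2 and CFBP1 fell by 0.99, 0.95 and 0.88 on the log2 scale. CPN60B1, a subunit of the chloroplast chaperonin, fell by 1.096 on the log2 scale. CPSRP54, CPSRP43 and CPFTSY, which carry LHC proteins to the thylakoid membrane, fell by 1.03, 1.25 and 1.302 on the log2 scale. The chlorophyll synthesis genes with the lowest adjusted p were GSA1 (171 ± 4.75 to 62.0 ± 1.74 CPM), PORB, CHLD and PORA, with log2 changes from -0.91 to -4.78, the last that of PORA, which had at most 6.48 CPM in any WT Col or lsm4 library. In lsm5 no gene of these 4 lists was called, with 3, 5, 3 and 3 genes at an unadjusted p under 0.05, beside 3535 of all 19819 genes.

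Markers of other tissue and of senescence moved beside the members, and their part in the results was not tested. Of 7 senescence and chlorophyll loss genes 6 were tested in lsm4 and 4 rose (SGR1, NYC1, PAO and SAG13, log2 0.86 to 1.73), beside 10.7% of all genes called higher, and their summed level was 158 to 175 CPM in WT Col and 258 to 332 CPM in lsm4. Of 12 root markers 11 were tested and 5 fell in lsm4 (RHD6, CASP1, IRT1, EXPA7 and CASP2), beside 10.7% of all genes called lower. In 8 of the 11 all lsm4 libraries lay below WT Col, which held for 19.1% of all genes. Of the 11, 10 had a log2 change below 0, against 48.8% of all genes, with a median of -1.29. The exception was PYK10, a beta-glucosidase gene, at 400.1 ± 86.5 CPM in WT Col against 564 ± 101 CPM in lsm4 (SD, n = 3 each; log2 0.50, not called), which made up most of the sum. The summed level of the list overlapped, at 500.3 to 725 CPM in WT Col and 526 to 744 CPM in lsm4. In the soil-grown plants 3 root markers (RHD6, CASP5 and EXPA7) had no count in any library and 2 were high enough to test, although the label is whole plants. The summed root marker level there was 119 to 137 CPM in WT C24 and 63.8 to 96.4 CPM in lsm5. The senescence genes summed to 805 to 875 CPM in WT C24 and 919.5 to 1017 CPM in lsm5, with none called. Both sums kept the wild-type and mutant libraries apart, WT C24 2 and lsm5 3 included.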

How the data were processed

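Per the labels' protocols, polyA-selected RNA was made into TruSeq libraries, whose kit does not mark strand. Raw read counts for genes, introns and alternative splicing bins are what the authors deposited; each count column carries the tag of 2 of the 24 sequenced libraries and was taken as 1 replicate (n = 3). The build TAIR10 and the tools TopHat2 (2.0.9), edgeR (3.4.2) and R (3.0.2) come from the submitters' processing notes; the counting tool is not given in the sources used here. The authors' deposited comparison tables, used for the lists credited to them, hold log2 fold changes and p-values with FDR, as their headers name them. Not used were 12 sample columns without a matching label and 1 unnamed intron row of 11 counts in all.

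Each mutant was tested against its own wild type with the edgeR 4.0.16 quasi-likelihood test in R 4.3.3 on whole tables (TMM scaling, filterByExpr with minimum count 10, Benjamini-Hochberg adjustment, calls at 0.05); DESeq2 1.42.0 was an alternative. Introns and bins used the log host gene count as offset, with at least 10 host counts in every library. Shares within families were tested with exact permutation tests. Scripts were tested on simulated data. Sequences came from the TAIR10.1 assembly through pyfaidx 0.9.0.4, and coding identity from Biopython 1.88 alignments. Of 80 member introns, 79 had GT and AG at their ends. Replicates of a group differed beyond sampling noise (chi-square per degree of freedom 16.0 to 148).

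The 50 members and the other gene lists were chosen with earlier results of these data known. The rule for naming was to account for all 50 by role. Values in every library were given for the 6 called members with the largest log2 change in each comparison, the most abundant member of each role per kilobase and the copies of subunits, up to 6 called introns or bins in each comparison, and up to 4 genes of other lists by adjusted p. Other genes named, such as RCA, PSAF, PSAN and LHCA6, were chosen after their values were seen. Alternatives were other scalings, filters and tools, each library left out and the replicate number as a block. Precision is limited by 3 libraries a group.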

Additional observations from a re-analysis of the deposited data

Results flagged for a closer look

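Genes whose change differed between the mutants by the interaction test were LHCB1.2 (lsm4 effect minus lsm5 effect -2.62 on the log2 scale), LHCB1.4 (-2.65), LHCB2.3 (-2.13), PSAD2 (-1.72) and PETE1 (-1.86). In each of them the lsm4 libraries lay below WT Col without overlap, as in 44 of the 50 members and 19.1% of all genes, while lsm5 and WT C24 overlapped. These genes were picked by a test on the same libraries, so this pattern adds no support to it. Their own log2 changes were -2.71, -2.91, -2.10, -1.46 and -1.99 in lsm4 and -0.07, -0.24, 0.06, 0.29 and -0.11 in lsm5. The interaction test called 10.5% of all genes in either direction and 5.08% lower in lsm4. LHCB2.3 and PSAD2 lost their call in 8 and 10 of the 12 fits that left out 1 library.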

How the results depend on the processing

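Direction held for all 22 genes called in lsm4 under every alternative run, whereas their number did not. It was 22 in the fit reported, 39 with DESeq2 and 11 with the replicate number as a block, lay between 7 and 20 when 1 library was left out, and was 39 without WT Col 1 and lsm4 2 together. RBCS1A was called in that last fit. The shares of all genes called in these fits are given above. RCA turned positive with library size as the only scaling (0.048), a setting that moved the median of all genes up by 0.16, and ranged from -0.37 to 0.21 with 1 library left out. In lsm5 no member was called except for 1 when lsm5 3 was left out (range 0 to 1), and 36 without WT C24 2 and lsm5 3. The 5 interaction calls became 3 with the size factors of DESeq2 and 11 with library size only, and 3 to 12 with 1 library left out.

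In lsm4, 13 of the 74 tested member introns were called in the fit reported. Counts over the member introns tested in each setting are given with the share of all introns called. The count was 31 with TMM scaling and no host offset (30 lower, 1 higher, 21.3% of all). With the host offset centred on the median intron it was 6 (3 lower, 3 higher, 4.98% of all). It was 9 to 17 with 1 library left out (6.56% to 17.8% of all) and 23 without WT Col 1 and lsm4 2 (24.7%). Without the host offset 8 of the introns that rose turned negative, because the value then includes the change of the gene: PSAE2 intron 1 (-0.30), LHCA1 intron 6 (-0.81), PSAO intron 1 (-0.59) and intron 2 (-0.21), LHCB6 intron 1 (-0.75), PSBS intron 2 (-0.31), PSAK intron 2 (-0.67) and LHCB3 intron 2 (-0.28). In lsm5 the 2 introns became 1 with no host offset (0.489% of all introns called) and 0 with the centred offset (0.0979%). They became 0 at a mean count of at least 30 (0.361%) and 9 with the block (3.24%). The count was 0 to 6 with 1 library left out (0% to 2.25%) and 28 without WT C24 2 and lsm5 3 (16.9%). For splicing bins in lsm4 there were 2 calls without host offset (5.8% of all bins), and 0 to 1 with 1 library left out (0% to 0.425%).

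Alternatives for shares within families were run only on some of the shares whose groups did not overlap. Those shares kept their direction per kilobase. Where groups do not overlap, leaving out 1 library cannot reverse the direction, so such fits decide nothing. The other shares were not run under alternatives. The summed level of the 50, 0.493 of WT Col, lay between 0.449 and 0.574 and that in lsm5, 0.964 of WT C24, between 0.882 and 1.14 with 1 library left out. Replicate numbers were not taken as pairs in the main fits. Deviations of same-numbered libraries correlated between -0.245 and 0.378 in the Col experiment and between -0.242 and 0.497 in the C24 experiment. The tags of the count columns run otherwise, I, II and IV in WT Col and II, III and IV in lsm4. By tag, WT Col 2 would go with lsm4 1 (0.109) and WT Col 3 with lsm4 3 (0.378). WT Col 1 and lsm4 2, the libraries left out together, have no partner by tag. In the C24 experiment the tags are A, B and D in WT C24 and A, B and C in lsm5. No fit used the tags as a block. The causes of the other changes were not tested. With 3 libraries a group and counts of low introns in single digits, changes near the spread between replicates were not detectable.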
